A study of Arabidopsis thaliana with 12 samples.

Results

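The genes described here are PAC (PALE CRESS, locus AT2G48120) and AT5G55580, which encodes the mTERF9 protein. They are 2 genes of Arabidopsis thaliana that act in the handling of plastid RNA. They were chosen as genes of plastid RNA maturation and organelle transcription for which the platform annotation pairs a probe with exactly 1 gene. Each has 1 such probe, and they are 2 of the 691 genes that 692 such probes name, among 3439 probes in all. The annotation pairs 1 further probe with AT5G55580 and another locus together, and that probe was not used.

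Transcript levels were measured on 12 arrays hybridised with total RNA of wild-type plants, ecotype Columbia 0. On 6 arrays, called H2O, the plants had been kept in water for 8 h. On the other 6, called pStau, 4 h in water were followed by a 4 h treatment, staurosporine at 25 mM and pH 5.5, a dose copied from the labels and not checked elsewhere. Staurosporine inhibits many protein kinases. The labels name no tissue, and nothing in them says whether different arrays held RNA of different plants. The p-values therefore measure only the spread between the samples, and that spread may be technical.

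Plastids keep a small genome, but most of the proteins that transcribe, cut, splice, edit and stabilise plastid RNA are encoded in the nucleus and imported. PAC is such a nuclear-encoded plastid protein. Its mutants are pale, with arrested plastids, and it has been linked to the maturation of plastid mRNA and to the assembly of the large ribosomal subunit of plastids. The mTERF proteins, named after a mitochondrial transcription termination factor of animals, are built of repeated helical motifs that bind nucleic acids. Plants hold many of them in plastids and mitochondria, and mTERF9 acts in plastids, where it supports ribosome assembly and translation.

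In pStau the transcript of PAC was higher and that of AT5G55580 lower than in H2O, each relative to the other probes of the arrays. After quantile normalization, which gives the positive values of every array the same distribution, PAC rose 1.52-fold (limma adjusted p = 0.0139), a log2 change of 0.61 ± 0.16 (SE, n = 6 arrays in each group, as in all changes below). AT5G55580 fell by 0.80 on the log2 scale, which is 1.75-fold lower (SE 0.27, limma adjusted p = 0.0393). In the values as deposited PAC was nearly level between the groups (log2 change 0.067, limma adjusted p = 0.696), while AT5G55580 fell by 1.55. After quantile normalization both probes passed at an adjusted p under 0.05, the threshold used throughout. So did 35.3% of the 3256 probes tested (16.5% of those tested were higher in pStau and 18.8% lower). In bulk samples such as these, fewer cells of a type and less RNA per cell cannot be told apart.

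The deposited intensity of PAC stayed between 0.467 and 0.691 on all arrays. It was 0.602, 0.594, 0.498, 0.514, 0.501 and 0.520 on H2O arrays 1 to 6. On pStau arrays 1 to 6 it was 0.530, 0.505, 0.467, 0.570, 0.642 and 0.691. As deposited, the groups overlapped, and pStau arrays 5 and 6 lay above every H2O array. After normalization the log2 level of PAC was -1.09, -1.12, -1.15, -1.13, -1.38 and -1.33 on H2O arrays 1 to 6. On the pStau arrays it was -1.03, -1.11, -0.49, -0.27, -0.36 and -0.28. Thus pStau arrays 3 to 6 stood clearly above all H2O arrays, whereas pStau arrays 1 and 2 lay at the level of H2O arrays 1 and 2, so that the groups overlapped by a narrow margin.

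The mean normalized log2 level of PAC was -1.20 ± 0.12 (SD, n = 6) in H2O and -0.59 ± 0.38 (SD, n = 6) in pStau. After normalization each pStau array was higher than the H2O array of the same number, in 6 of 6 pairs, although by only 0.055 and 0.011 in pairs 1 and 2. As deposited, it was higher in 3 of 6. The 95% confidence interval of the change ran from 0.26 to 0.96 on the log2 scale. An exact permutation test over the arrays, two-sided and unadjusted, gave p = 0.00433, where 0.00216 is the smallest value that the 924 splits allow. Over pairs of the same number the exact permutation test gave p = 0.03125, the smallest value that 6 pairs allow. Both tests take arrays or pairs as independent, although consecutive arrays were alike, as described below. With consecutive arrays averaged, the exact permutation test over arrays gave p = 0.10, the smallest value possible there. The spread of PAC among H2O arrays was small, since 11.8% of the tested probes had an SD at or below it.

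AT5G55580 followed another course. Its deposited intensity was 1.12, 0.586, 0.820, 0.795, 0.754 and 0.701 on H2O arrays 1 to 6. It was 0.796, 0.551, 0.185, 0.196, 0.146 and 0.156 on pStau arrays 1 to 6. As deposited, pStau arrays 3 to 6 were far below every H2O array, and pStau arrays 1 and 2 lay within or just under the H2O range. After normalization the log2 level was -0.08, -1.15, -0.35, -0.43, -0.69 and -0.80 on the H2O arrays. On the pStau arrays it was -0.46, -0.99, -1.50, -1.43, -2.02 and -1.93. H2O array 2 was the lowest of its group and lay below pStau arrays 1 and 2, so the groups overlapped.

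The mean normalized log2 level of AT5G55580 was -0.58 ± 0.38 (SD, n = 6) in H2O and -1.39 ± 0.59 (SD, n = 6) in pStau. It was lower in pStau in 5 of 6 pairs of the same number, and in 6 of 6 as deposited. The 95% confidence interval of the change ran from -1.40 to -0.21. The exact permutation test over arrays gave p = 0.0238 (two-sided, unadjusted), and over pairs of the same number it gave p = 0.0625. The adjusted p of AT5G55580 was close to the threshold: leaving out any 1 of 9 single arrays, namely H2O arrays 1, 3, 4, 5 and 6 and pStau arrays 3 to 6, ended the call, with a limma adjusted p of up to 0.0846. The call of PAC held without each of the 12 arrays in turn, with a limma adjusted p of at most 0.0326.

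**Figure D1:**
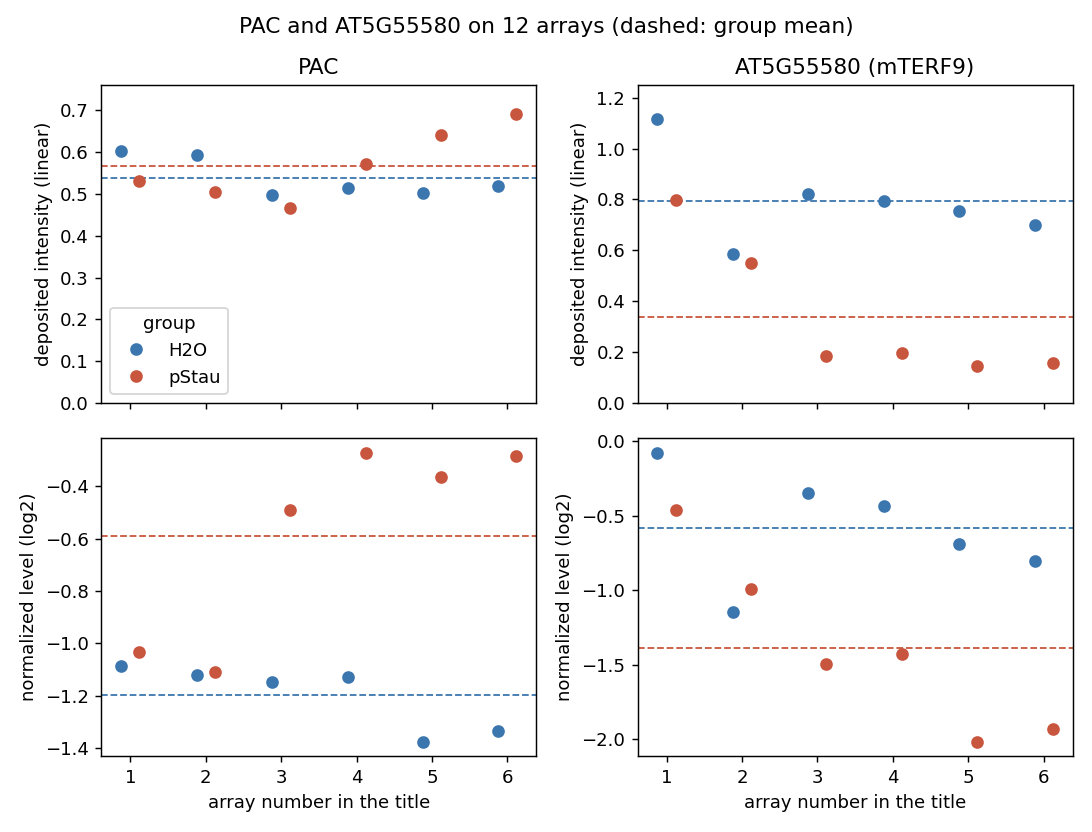
Deposited intensity (upper panels, linear) and normalized log2 level (lower panels) of PAC and AT5G55580 against the array number of the title, for H2O (blue) and pStau (red), with each group's mean as a dashed line. PAC on pStau arrays 3 to 6 lies between -0.49 and -0.27 after normalization, above all H2O arrays, and AT5G55580 on those arrays lies between -2.02 and -1.43, below all H2O arrays.

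Both differences were found on arrays 3 to 6. Within a group, arrays 1 and 2, arrays 3 and 4, and arrays 5 and 6 formed pairs that were alike: deviations from the group mean had a mean correlation of 0.39 inside these pairs, in each group, and of at most -0.25 across them. The normalized log2 change of PAC was 0.033 in the first pair, 0.76 in the second and 1.03 in the third. That of AT5G55580 was -0.11, -1.07 and -1.23 in the same order. On arrays 1 and 2 both genes were thus near no change. Over all probes the SD of the changes was 0.59 on arrays 1 and 2, against 1.04 and 1.11 on the other arrays, so the spread of changes was smaller there. Whether the change of either gene differed between these array pairs was not tested.

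With consecutive arrays treated as a random block, PAC still passed (limma adjusted p = 0.0422) and AT5G55580 did not (limma adjusted p = 0.228). In that fit 16.1% of the probes passed at all. With consecutive arrays averaged to 3 values per group, neither passed (limma adjusted p = 0.186 for PAC and 0.208 for AT5G55580), and 0.0921% of the probes (3) did. Without arrays 3 and 4 of both groups the log2 change was 0.53 for PAC and -0.67 for AT5G55580, and neither passed. Without arrays 5 and 6 it was 0.40 and -0.59, and neither passed. In these fits 484 and 515 of the 3256 probes passed, against 1148 with all arrays. Without arrays 1 and 2 both passed, as they did with the replicate number as a block (limma adjusted p = 0.0388 for PAC and 0.0299 for AT5G55580).

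**Figure D2:**
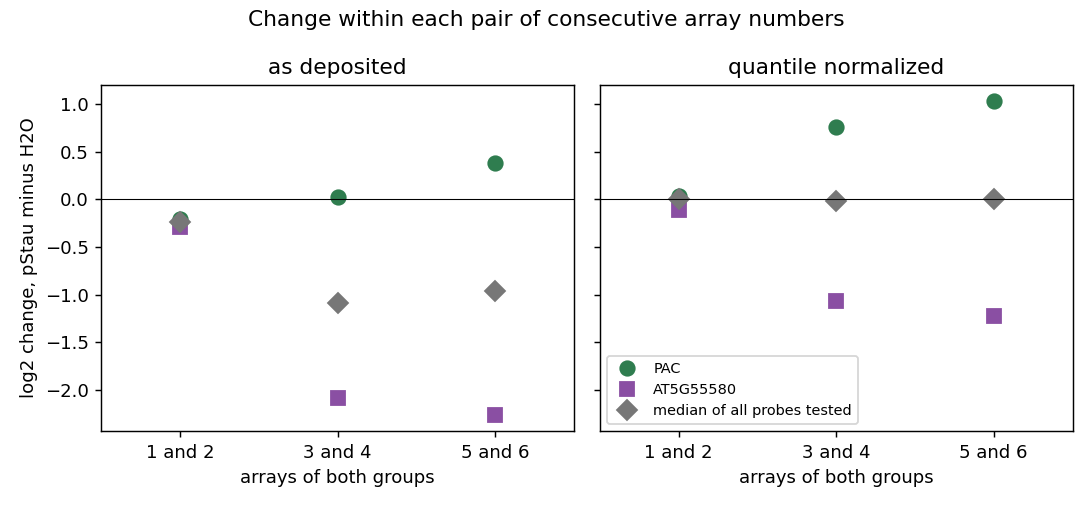
Log2 change (pStau minus H2O) of PAC, AT5G55580 and the median of all tested probes in each pair of consecutive array numbers, as deposited (left) and after quantile normalization (right). On arrays 1 and 2 both genes lie near the median of all probes, and on the other arrays PAC lies above it and AT5G55580 below it in both panels.

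The size of each change depended on how the arrays were scaled, and for PAC so did the call. As deposited, the medians of pStau arrays 3 to 6 were low: array medians ranged from 0.405 to 0.485 in H2O and from 0.169 to 0.392 in pStau, while totals were 3054 to 3562 on all arrays. The median log2 change of all tested probes was -0.80 as deposited, and 1519 probes (46.7%) were called lower and 183 (5.62%) higher, against 612 lower and 536 higher after quantile normalization. Relative to that median, PAC was 0.87 higher as deposited. With all arrays brought to a common total the log2 change of PAC was 0.053 (limma adjusted p = 0.755), again 0.87 above the median of all probes. The call of PAC therefore states a rise relative to the other probes, and its difference as deposited was within the spread of the arrays. PAC passed with median-centred arrays (log2 change 0.79), with cyclic loess (0.68) and with zeros included in the quantile ranking (0.64).

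The fall of AT5G55580 passed under all 6 scalings, in several only narrowly. Its limma adjusted p was 0.0393 after quantile normalization, 0.0400 with median-centred arrays, 0.0443 with cyclic loess and 0.0455 with zeros ranked. It was 0.0110 as deposited and 0.00692 at a common total, where 1519 and 1628 of the 3256 probes tested were called lower. The log2 change of AT5G55580 was -1.55 as deposited and -1.56 with all arrays brought to a common total. It was -0.82 with arrays centred on their median, -0.83 with cyclic loess and -0.75 with zeros ranked. As deposited, it lay 0.74 below the median change of all probes. By array pair, the deposited log2 change of AT5G55580 was -0.29, -2.09 and -2.27, against -0.24, -1.09 and -0.97 for the median of all probes. That of PAC was -0.21, 0.027 and 0.38. On arrays 1 and 2 both genes thus followed the median probe closely, and on the others they parted from it in opposite directions.

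**Figure D3:**
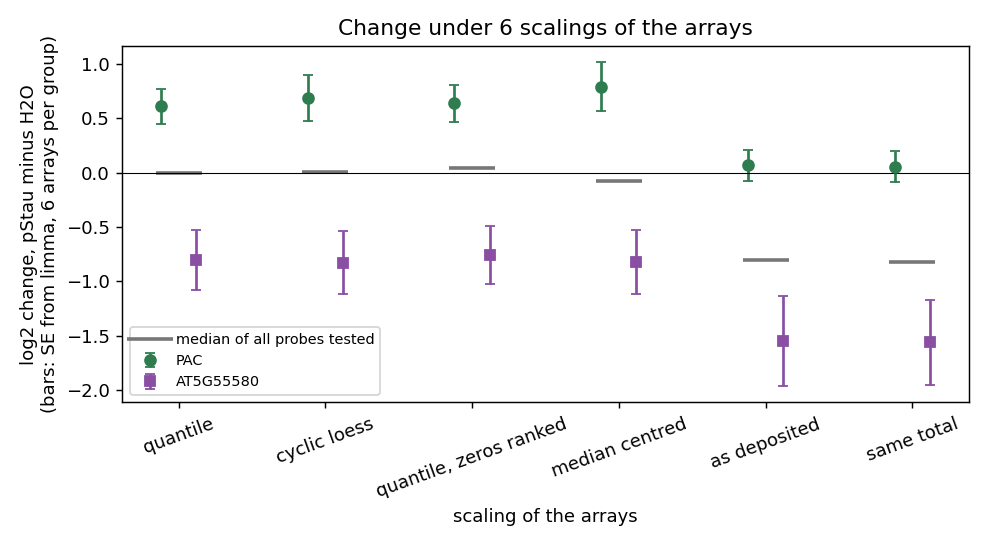
Log2 change (pStau minus H2O, with the SE from limma, 6 arrays per group) of PAC and AT5G55580 under 6 scalings of the arrays, with the median change of all tested probes as a grey bar. PAC lies above the median and AT5G55580 below it under each, and PAC comes down to 0.067 and 0.053 where the median itself is at -0.80 and -0.82.

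Whether both genes changed differently was tested on the difference of their log2 levels on each array, which a scaling factor common to an array does not alter. This difference (PAC minus AT5G55580) was -0.62 ± 0.35 (SD, n = 6) in H2O and 0.80 ± 0.93 (SD, n = 6) in pStau. It was between -1.01 and 0.028 on the H2O arrays, -0.57 and -0.12 on pStau arrays 1 and 2, and between 1.01 and 1.65 on pStau arrays 3 to 6. The changes of the 2 genes differed by 1.41 on the log2 scale (exact permutation test over arrays, two-sided, p = 0.0152). In the deposited values, and with all arrays brought to a common total, they differed by 1.61 (exact permutation p = 0.0173). By array pair the difference between the changes was 0.15, 1.83 and 2.26. Exact permutation within pairs of the same number gave p = 0.0625. With consecutive arrays averaged the exact p was 0.10, the smallest value that 3 against 3 allows.

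Among all tested probes neither change was extreme. The change of PAC was at or above those of 85.3% of the probes, and that of AT5G55580 at or above those of 15.2%. A larger absolute change was found for 35.6% of the probes in the case of PAC and for 23.6% in that of AT5G55580. Both were probes of middling brightness in water, with 55.6% of the tested probes at or below the H2O mean of PAC and 71.9% at or below that of AT5G55580. Neither was listed at 0 on any array, so no floor enters their values.

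**Figure D4:**
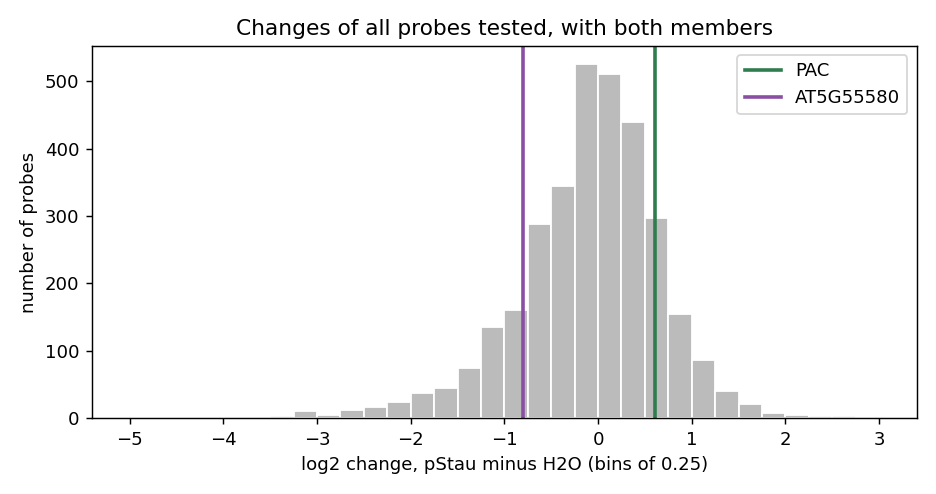
Number of probes by log2 change (pStau minus H2O, quantile normalized, bins of 0.25) for the 3256 probes tested, with the changes of PAC (0.61) and AT5G55580 (-0.80) as vertical lines. Both lines fall on the shoulders of the distribution, well inside its tails.

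The mTERF family was followed through a list of 35 loci drawn up from general knowledge of the family, since the tables used give no description for most of them. Of these, 8 had a probe with a single gene. Apart from AT5G55580, 2 of the 7 others rose, 2 fell and 3 did not pass, beside 35.3% of all tested probes called (16.5% higher and 18.8% lower). Their median log2 change was -0.52 beside -0.0041 for all probes tested. As deposited, at a common total or with median-centred arrays their median lay 0.23 below that of all probes, so its distance from the other probes depends on the scaling. AT1G61990 was lower in pStau in 6 of 6 pairs and its groups did not overlap, as was so for 17.4% of all probes. Its log2 levels were -0.84 to 0.063 in H2O and -2.94 to -0.88 in pStau, a change of -1.26 ± 0.32 (SE; limma adjusted p = 0.0123). With consecutive arrays as a random block its limma adjusted p was 0.115.

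AT3G46950, another mTERF family locus, had a log2 change of -0.66 and passed (limma adjusted p = 0.0155). Like AT5G55580 it was near no change on arrays 1 and 2 (-0.062) and lower on arrays 3 and 4 (-0.96) and 5 and 6 (-0.95). Centring the arrays on their median ended its call (limma adjusted p = 0.0646), at a log2 change of -0.45. AT1G62010 (-0.52 ± 0.26, SE) and AT1G62150 (-0.30 ± 0.11, SE) did not pass. AT1G62010 passed as a fall with the replicate number as a block (limma adjusted p = 0.0297), as deposited (0.0360) and at a common total (0.0311). As deposited and at a common total it lay 0.23 below the median of all probes, against 0.52 below after quantile normalization. AT1G62150 passed in opposite directions: as a rise with median-centred arrays (log2 change 0.29, limma adjusted p = 0.0463) and as a fall without arrays 1 and 2 of both groups (-0.49, 0.00487). AT1G61990, AT1G62010 and AT1G62150 lie near each other in gene order, and whether their probes also bind transcripts of neighbouring family members was not tested. AT1G79220 was listed at 0 on pStau array 3, and its change did not pass.

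AT3G18870 and AT4G09620 were the mTERF family loci that went the other way from AT5G55580. AT3G18870 rose by a log2 change of 0.76 ± 0.15 (SE; limma adjusted p = 0.00310), higher in 6 of 6 pairs (4 of 6 as deposited), from -2.29 to -1.89 in H2O to between -1.86 and -1.13 in pStau. As with PAC, that rise is relative to other probes: its change was -0.035 as deposited and -0.049 with all arrays brought to a common total. AT4G09620 rose by a log2 change of 0.80 ± 0.26 (SE; limma adjusted p = 0.0343) and lay above the H2O mean on all 6 pStau arrays. Its deposited log2 change was 0.35, 1.56 and 1.17 in the 3 array pairs, so it was higher in pStau also without quantile normalization. Its call ended without any 1 of 8 single arrays (H2O arrays 3 to 6 and pStau arrays 1 to 4), with a limma adjusted p of up to 0.0739, with the random block (0.0675) and with cyclic loess (0.0704).

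The genes of plastid RNA maturation were followed through a list of 58 loci, whose roles likewise come from general knowledge. Of these, 6 had a probe with a single gene and 5 entered the fit. One of these, AT3G22690, was at the floor on nearly all arrays. Apart from it and PAC, 3 genes remained: AT5G19210 fell, CRR21 rose and OTP70 did not pass, beside 18.8% of all tested probes lower and 16.5% higher. Their median log2 change was 0.013 beside -0.0041 for all probes. AT5G19210, entered in that list as a DEAD-box RNA helicase of plastids, fell by 1.14 on the log2 scale (SE 0.13, limma adjusted p = 0.000229). Its log2 level was between -1.04 and -0.73 in H2O and between -2.33 and -1.60 in pStau, with no overlap. It was lower in pStau in each array pair, with log2 changes of -1.14, -1.34 and -0.95, arrays 1 and 2 included, where PAC was at 0.033 and AT5G55580 at -0.11. That difference between the genes was not tested. Its call held in 26 of 27 alternatives and ended with consecutive arrays averaged (limma adjusted p = 0.0988).

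CRR21, a pentatricopeptide repeat protein that acts in the editing of a plastid ndh transcript, rose by a log2 change of 0.51 ± 0.13 (SE; limma adjusted p = 0.0136). It was higher in pStau in 6 of 6 pairs (2 of 6 as deposited). Its change was -0.13 as deposited and -0.14 with all arrays brought to a common total, so its sign depends on the scaling. In both it lay 0.68 above the median of all probes, so, as with PAC, the rise is relative to other probes. With consecutive arrays as a random block its limma adjusted p was 0.0871. OTP70, a pentatricopeptide repeat protein needed for the splicing of a plastid transcript, did not pass (log2 change 0.013 ± 0.14, SE). At a common total it was called lower (-0.48, limma adjusted p = 0.0216), as were 1628 of the 3256 probes tested. There it lay 0.34 above the median of all probes. AT3G22690 was listed at 0 on 11 of 12 arrays, so its fitted values depend on the floor and measure no change. OTP85 was listed at 0 on all 12 and was not tested. None of the 31 loci of a list of plastid transcription factors and polymerase-associated proteins had a probe with a single gene, nor did any of 10 marker loci of root hairs, guard cells, phloem and epidermis.

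Most calls among these other genes also ended when an array pair was left out. Over all probes tested, 1148 of 3256 passed with all arrays, 484 without arrays 3 and 4 and 515 without arrays 5 and 6. Without arrays 3 and 4 of both groups the calls of AT1G61990, AT3G46950, AT4G09620 and CRR21 ended. Without arrays 5 and 6 those of AT1G61990, AT3G18870, AT3G46950 and CRR21 did, and the log2 change of AT1G61990 was then -0.67. AT5G19210 passed without either pair.

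**Figure D5:**
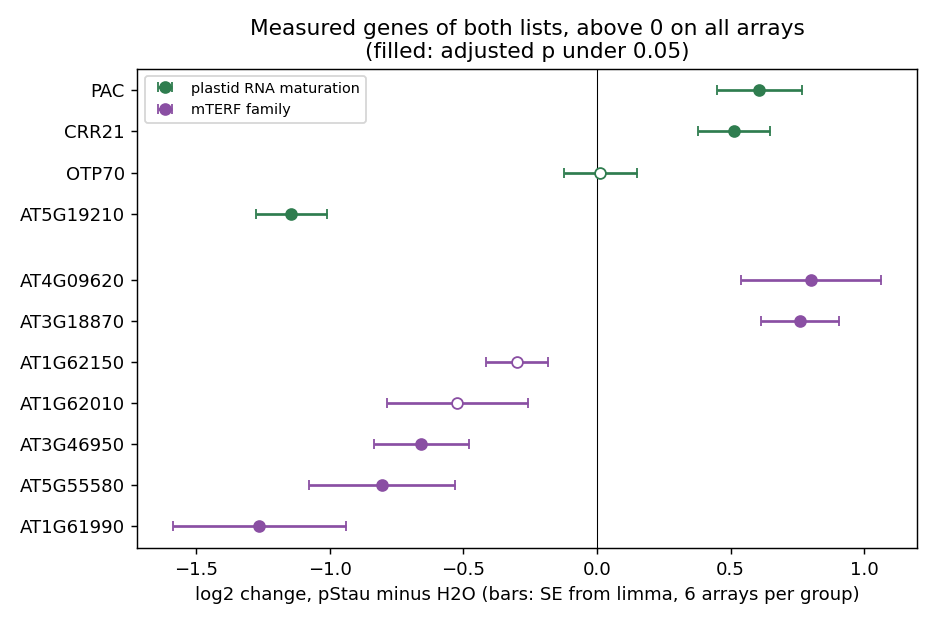
Log2 change (pStau minus H2O, quantile normalized, with the SE from limma, 6 arrays per group) of the measured genes of plastid RNA maturation (green) and of the mTERF family (purple) that were above 0 on all arrays, with filled points for an adjusted p under 0.05. Each list holds genes on both sides of 0, from 0.61 (PAC) to -1.14 (AT5G19210) and from 0.80 (AT4G09620) to -1.26 (AT1G61990).

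Likeness of pattern was measured by Pearson's r of normalized log2 levels over the 12 arrays, among 529 probes with a single gene that were above 0 on every array. It is a description, since the arrays share groups and array pairs. The patterns most like that of PAC were those of AT5G61470 (r = 0.964), AT1G72020 (r = 0.963) and AT1G13990 (r = 0.961), and 17 of the 529 had an r over 0.9. All 3 passed, at log2 changes of 0.73, 0.93 and 0.51, beside 35.3% of all tested probes called (16.5% higher). Since likeness was taken over both groups, a shared direction follows in part from the choice of these genes. The sign of the AT5G61470 change depended on the scaling, since its deposited change was -0.19, although that lay 0.61 above the median of all probes. AT1G72020 did not pass as deposited (limma adjusted p = 0.111) or at a common total (0.124). The patterns most like that of AT5G55580 were those of AT5G63830 (r = 0.943), AT2G43760 (r = 0.940) and AT4G21170 (r = 0.920), and 7 of the 529 had an r over 0.9. AT5G63830 fell, with a log2 change of -0.65 (limma adjusted p = 0.0224, and 0.0896 with consecutive arrays as a random block), while AT2G43760 (log2 change -0.32 ± 0.14, SE) and AT4G21170 (-0.31 ± 0.16, SE) did not pass. AT2G43760 passed with the replicate number as a block (limma adjusted p = 0.0430) and as deposited (0.0232). Its deposited change (-0.79) was close to the median of all probes (-0.80), and 46.7% of probes were called lower there. Without arrays 1 and 2 of both groups AT2G43760 and AT4G21170 both passed as falls (limma adjusted p = 0.00790 and 0.00232). Without arrays 3 and 4, or 5 and 6, of both groups, the calls of AT5G61470, AT1G72020, AT1G13990 and AT5G63830 ended. In those fits 484 and 515 of the 3256 probes passed.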

How the data were processed

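The 12 samples were grouped by their titles. The authors deposited 1 table of array intensity values, whose unit is not stated and which were read as linear. Background correction, scaling and dyes are not given in the sources used here, so the scale and centring stay unknown. The highest value was 100, and 11.5% to 17.3% of values per array were 0. Precision is limited by the number of arrays.

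Gene names come from the platform annotation, whose age may leave some outdated, brought up to date with the RefSeq gene table (TAIR10.1), which was read only for names and for gene order. Of 3439 probes, 692 had 1 gene, 870 several and 1877 none, and 690 of the 692 matched that table.

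Array medians differed 2.87-fold, so positive values were quantile normalized. Zeros and values below the percentile 1 of the normalized positive values, 0.0167, were set to it, and levels are log2 of the result. Tests left out the 183 probes listed at 0 throughout. The group difference was fitted in limma 3.58.1 (R 4.3.3) with lmFit and eBayes, no block, two-sided, and p-values were adjusted by Benjamini-Hochberg over 3256 probes. Single values were also tested by exact permutation over arrays, unadjusted, for 3 values. Figures used matplotlib 3.10.9 in Python 3.11.15. The fit was tested on simulated data.

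Same-numbered H2O and pStau arrays deviated together from their group means (r of 0.31 to 0.54, over 0.1 for all 6 numbers), and for 6 of 6 H2O arrays the pStau array most like it carried its number. The numbers thus meet the criterion set for pairing, although the labels give no origin for it. The main tests were unpaired, and the replicate number entered as a block in an alternative fit. Named genes were both members, every measured gene of the mTERF family, plastid transcription and plastid RNA maturation lists, and for each member the 3 genes with the highest r. The members, lists and tests were chosen with earlier results of these data known. Alternatives covered scaling, low values, the replicate block, consecutive arrays and arrays left out. Other microarray files were not used here.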

Additional observations from a re-analysis of the deposited data

Results flagged for a closer look

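Among 37 sets of 6 arrays of the genes described, 2 held an array far from the others. Chance gives about 1 in 20 for independent values, but consecutive arrays were alike, so that rate is only a rough guide here. AT1G79220, of the mTERF family, was at the floor (log2 level -5.90, listed at 0) on pStau array 3, with its nearest neighbour at -1.93. AT3G22690 was at -4.71 on pStau array 6 and listed at 0 on the other arrays of both groups. Both flags rest on values of 0 that were set to the floor, so they measure no distance in transcript level. No array of PAC or AT5G55580 stood apart from its group in this way. The flag looks for a single array far from its nearest neighbour, so it cannot mark a pair of alike arrays. PAC on pStau arrays 1 and 2 (log2 levels -1.03 and -1.11) was such a pair, against -0.49 to -0.27 on arrays 3 to 6.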

How the results depend on the processing

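The calls of both members ended without arrays 3 and 4 or without arrays 5 and 6. That of PAC also depended on scaling, and that of AT5G55580 on most single arrays. The cause was not tested. Probes called (1148) were 1808 with arrays brought to a common total, 1702 as deposited, 524 with consecutive arrays as a random block, 3 with them averaged, 484 and 515 without arrays 3 and 4 or 5 and 6 of both groups, and 973 to 1250 without each single array. PAC kept its direction throughout and lost its call as deposited (log2 change 0.067, exact permutation p = 0.515), at a common total (0.053, p = 0.610), averaged (0.61, p = 0.10), and without arrays 3 and 4 (0.53, p = 0.0571) or 5 and 6 (0.40, p = 0.0571); without single arrays it was 0.54 to 0.71. AT5G55580 lost its call with the random block and averaged (-0.80 in both, exact permutation p = 0.20 averaged), and without arrays 3 and 4 (-0.67, p = 0.229) or 5 and 6 (-0.59, p = 0.143). Its change was -0.80 also with the replicate block, where pairs gave an exact p of 0.0625. Without single arrays the change of AT5G55580 was -0.99 to -0.68, and 9 of these 12 omissions ended its call (limma adjusted p of up to 0.0846). The difference between the members was 1.41 averaged and with the replicate block (exact permutation p = 0.10 and 0.0625), 1.20 and 0.99 without arrays 3 and 4 or 5 and 6 (exact permutation p = 0.171 and 0.114), and 1.24 to 1.68 without single arrays. With 3 averaged values per group the exact test cannot pass. The replicate block left 1279 probes called, gave AT1G62010 and AT2G43760 a pass and ended the call of no named gene in limma. Directions turned as deposited and at a common total for AT3G18870 (-0.035 and -0.049), AT5G61470 (-0.19 and -0.20), CRR21 (-0.13 and -0.14), OTP70 (-0.47 and -0.48) and AT3G22690 (-1.48 and -1.49), and after median centring for AT1G62150 (0.29), AT4G21170 (0.33) and AT3G22690 (-0.76). For AT3G22690 this moves the floor alone. The median change of all probes was -0.80 as deposited and -0.82 at a common total, and AT3G18870, AT5G61470, CRR21 and OTP70 lay above it in both. OTP70 was also -0.011 with cyclic loess, -0.16 without arrays 3 and 4, and -0.035 to 0.082 without single arrays. With the dimmest 25% of probes left out, and with a floor at percentile 5, a pseudocount of 0.1 or an intensity trend, both members passed.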
